A study of Mus musculus with 6 samples.

Results

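The secreted antagonists of Wnt signaling were examined in the dorsal midbrain of mouse embryos that lacked Ezh2 function. The set comprises 10 genes, *Wif1*, *Dkk1*, *Dkk2*, *Dkk3*, *Dkk4*, *Sfrp1*, *Sfrp2*, *Sfrp4*, *Sfrp5* and *Frzb*. They were read through the 18 probe sets, of 45037 tested, that the platform's annotation assigns to 1 of these symbols and to no other gene. By gene, these are 10 of 18193 with a probe set of their own. All 10 genes were represented, *Sfrp1* by 5 probe sets, *Dkk1*, *Dkk3*, *Sfrp5* and *Frzb* by 2 each, and the others by 1. The study had itself singled out *Wif1* and *Dkk2* from these arrays, so their values here are not independent of that choice. It also reports both as higher by quantitative RT-PCR in mutant midbrains of a later stage, and *Wif1* by in situ hybridization.

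RNA was taken at embryonic day 10.5 from dorsal midbrains on a C57BL/6 background and hybridized to Affymetrix A430 arrays, with 3 *Ezh2* cko and 3 control samples and 1 array for each. The *Ezh2* cko embryos carried *Wnt1-Cre* and a pair of floxed *Ezh2* alleles, in which Cre removes the part encoding the catalytic SET domain. *Wnt1-Cre* acts in the midbrain and also in the neural crest, and the study describes its recombination as incomplete in the rostral part of the dorsal midbrain. Controls were littermates that either had no *Wnt1-Cre* and the floxed alleles, or had *Wnt1-Cre* and kept a wild-type allele. The labels name every control WT and do not tell these kinds apart. Each group came from 2 litters, which are not assigned to samples, so p-values measure the spread between these samples. Ezh2 is the methyltransferase of Polycomb repressive complex 2 and places the repressive histone mark H3K27me3.

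Wnt ligands bind Frizzled receptors and the co-receptors LRP5 and LRP6, which stabilizes β-catenin and activates target genes. Secreted antagonists act outside the cell and fall into groups by what they bind. Wif1 and the secreted frizzled-related proteins (Sfrp1, Sfrp2, Sfrp4, Sfrp5 and Frzb, also called Sfrp3) can bind Wnt proteins themselves, whereas Dkk1, Dkk2 and Dkk4 bind LRP5 and LRP6. Dkk3 is a divergent Dickkopf protein. In the embryonic midbrain, Wnt1 from the isthmus and the dorsal midline is required for growth of the tissue.

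Values are log2 signals, in which a difference of 1 is a doubling. The signal depends on the probes, and no value of it means that a transcript is missing. Each probe set was therefore compared only with itself, and the genes were not ranked by level. The words rose and fell are kept for probe sets whose p from limma, adjusted over all 45037 with the Benjamini-Hochberg method, was under 0.05. In this bulk tissue, fewer cells expressing a gene and less RNA per cell cannot be told apart. The mean signal of the 1 *Ezh2* probe set was 11.75 ± 0.04 (SD, n = 3) in the *Ezh2* cko against 11.70 ± 0.05 (SD, n = 3) in controls. Whether it reads the deleted part is not known here, so it does not check the deletion. The 10 markers of dorsal midbrain had mean log2 signals of 9.93 to 9.94 on the control arrays and 10.05 to 10.16 on the *Ezh2* cko arrays. The signal scale cannot show whether a marker is present or absent, so these levels do not check the labelled tissue. Control replicate 1 and *Ezh2* cko replicate 3 stood farthest out within their groups on the first principal component (35.1% of the variance), so *Wif1* and *Dkk2* are also given without them.

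*Wif1* rose in the *Ezh2* cko midbrain. The probe sets of *Dkk2*, *Dkk1* and *Dkk3* and 1 of the 2 of *Frzb* had groups that did not overlap, with the *Ezh2* cko higher. The groups overlapped for the other *Frzb* probe set and for those of *Sfrp1*, *Sfrp2*, *Sfrp4*, *Sfrp5* and *Dkk4*. Only *Wif1* passed the adjusted p among the 18 probe sets, and none fell. Over all probe sets, 0.189% passed in either direction and 0.184% were higher. At the threshold given in the methods, a minimum fold change together with an unadjusted p, 2 members passed, *Wif1* and *Dkk2*, both higher, where 0.24% of all probe sets passed as higher. Every *Ezh2* cko array lay above every control array for 7 of the 18 probe sets (38.9%), against 5.72% of all probe sets, and below every control array for none, against 7.27%. Those 7 probe sets belong to 5 genes, and probe sets of 1 gene read the same transcripts and are not independent. Without both control replicate 1 and *Ezh2* cko replicate 3, 0 members passed the adjusted p from limma. The share of all probe sets that passed it there is not given here. In that setting 10 of the 18 had an unadjusted p under 0.05, against 6.37% of all probe sets. With all 6 arrays, 7 of the 18 had an unadjusted p under 0.05, against 7.55% of all probe sets. The median log2 difference of the members was 0.10, beside -0.02 over all probe sets.

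**Figure D1:**
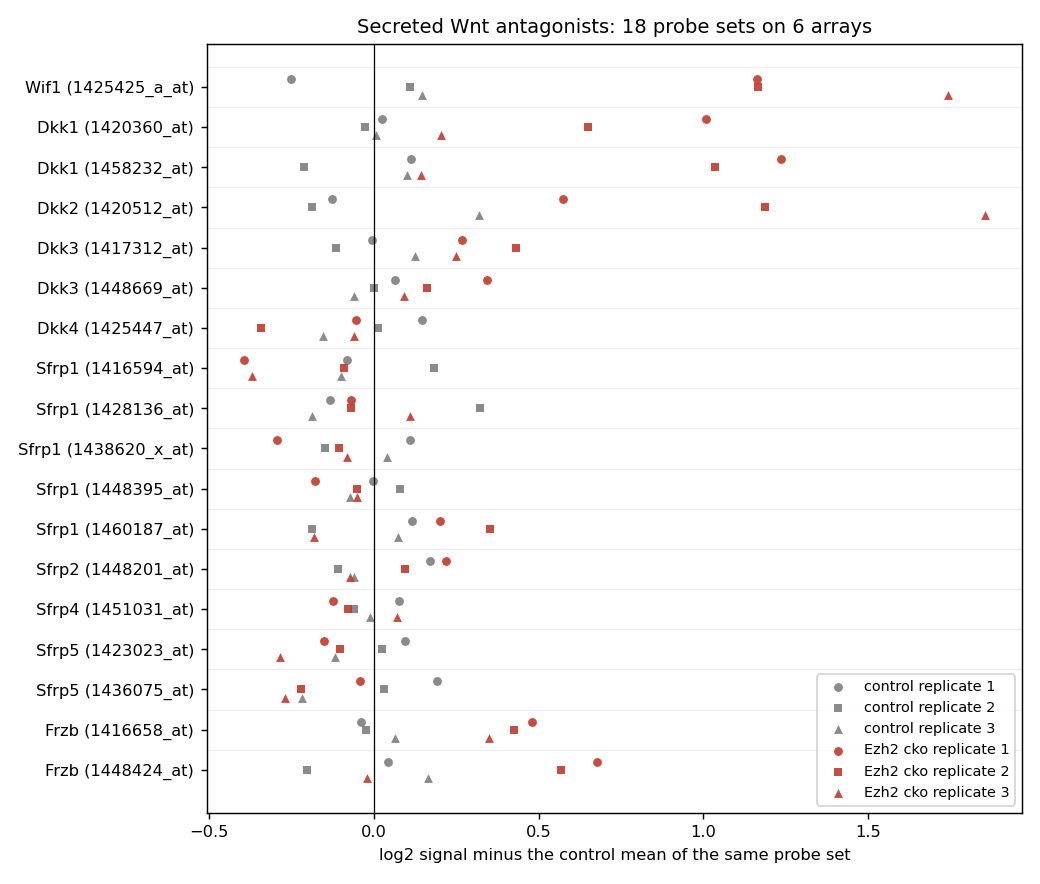
Deviation in log2 signal from the mean of the controls (x axis) for the 18 member probe sets (y axis). Grey points are the 3 control arrays and red points the 3 arrays of the *Ezh2* cko, with a marker shape for each replicate number. The red points of *Wif1*, *Dkk2*, *Dkk1*, *Dkk3* and 1 probe set of *Frzb* lie to the right of all grey points, and those of the *Sfrp* genes and *Dkk4* are mixed with them.

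*Wif1* encodes Wnt inhibitory factor 1, a secreted protein with a WIF domain and EGF-like repeats. Its probe set (1425425_a_at) had log2 signals of 4.33, 4.69 and 4.73 in control replicates 1 to 3, and of 5.75, 5.75 and 6.33 in *Ezh2* cko replicates 1 to 3. The groups were separated by about 1 log2 unit between the highest control and the lowest *Ezh2* cko array, and *Ezh2* cko replicate 3 was the highest. The difference was 2.56-fold (95% interval 1.95 to 3.37), or 1.36 ± 0.17 (standard error) on the log2 scale, with an adjusted p = 0.0273 from limma. Leaving out *Ezh2* cko replicate 3 gave a log2 difference of 1.17 with adjusted p = 0.0459. Leaving out any other array ended the call, although the difference stayed between 1.23 and 1.45 (adjusted p = 0.0606 to 0.108). Without both control replicate 1 and *Ezh2* cko replicate 3 it was 1.04 (adjusted p = 0.0855). The unadjusted p of *Wif1* from limma was 1.9e-05 there, against 3.5e-05 with all arrays. The adjusted p also depends on the other probe sets.

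*Dkk2* encodes a Dickkopf protein that binds LRP6 and can lower or raise Wnt signaling depending on the cell. Its probe set (1420512_at) was at 5.12, 5.06 and 5.57 in control replicates 1 to 3, and at 5.82, 6.44 and 7.11 in *Ezh2* cko replicates 1 to 3. No arrays overlapped, but *Ezh2* cko replicate 1 lay only slightly above control replicate 3, and the *Ezh2* cko arrays were spread over more than 1 log2 unit. The difference was 2.31-fold (95% interval 1.47 to 3.62, log2 difference 1.20, standard error 0.29) and did not pass the test (adjusted p = 0.254 from limma). Without *Ezh2* cko replicate 3 it was 0.88 (adjusted p = 0.431), and without *Ezh2* cko replicate 1 it was 1.52 (adjusted p = 0.103). Without both control replicate 1 and *Ezh2* cko replicate 3 it was 0.82 (adjusted p = 0.647).

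*Dkk1* encodes the Dickkopf protein best known as an LRP6 inhibitor and head inducer, and is itself a target gene of the canonical pathway in many tissues. Its first probe set (1420360_at) read 7.74, 7.69 and 7.72 in the controls, which nearly coincide, and 8.72, 8.37 and 7.92 in *Ezh2* cko replicates 1 to 3. Its second probe set (1458232_at) read 5.30, 4.98 and 5.29 in the controls, against 6.43, 6.23 and 5.33 in the mutants. In both, *Ezh2* cko replicate 1 was highest and replicate 3 was close to the controls, the opposite order to *Dkk2*. The log2 differences were 0.62 (95% interval 0.22 to 1.02, adjusted p = 0.378) and 0.80 (95% interval 0.23 to 1.38, adjusted p = 0.451), neither past the test. Leaving out *Ezh2* cko replicate 3 brought them to 0.83 (adjusted p = 0.116) and 1.14 (adjusted p = 0.0459), so that the second probe set then passed. Leaving out *Ezh2* cko replicate 1 brought them to 0.43 (adjusted p = 0.558) and 0.59 (adjusted p = 0.696).

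*Dkk3*, whose product acts on Wnt signaling in a context-dependent way, showed a small difference. Probe set 1417312_at was at 5.81, 5.70 and 5.94 in controls and 6.08, 6.25 and 6.07 in the *Ezh2* cko, and probe set 1448669_at at 6.38, 6.32 and 6.25 against 6.66, 6.48 and 6.41. The groups did not overlap in either, but the gap between the nearest arrays was narrow. The log2 differences were 0.32 (adjusted p = 0.41) and 0.20 (adjusted p = 0.677). *Dkk4* encodes a further ligand of LRP6. It was at 4.77, 4.64 and 4.47 in controls and 4.57, 4.29 and 4.57 in the *Ezh2* cko, with overlapping groups and a log2 difference of -0.15 (95% interval -0.41 to 0.10, adjusted p = 0.818). Of the 6 Dickkopf probe sets, 5 had positive differences, against 43.1% of all probe sets, and none passed the adjusted p. The same 5 had every *Ezh2* cko array above every control array, against 5.72% of all probe sets. They belong to *Dkk1*, *Dkk2* and *Dkk3* only, and probe sets of 1 gene are not independent.

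*Frzb* encodes a secreted protein with a Frizzled-like cysteine-rich domain. Its probe set with the higher signal (1416658_at) was at 9.45, 9.47 and 9.56 in the controls, against 9.97, 9.92 and 9.84 in the mutants. The spread within each group was small beside the gap between them, and the log2 difference of 0.42 (95% interval 0.24 to 0.59, 1.34-fold) had the second smallest p of the members but did not pass (adjusted p = 0.119). It ranged only from 0.39 to 0.45 when each array was left out. The other probe set (1448424_at), at 6.69, 6.44 and 6.81 in controls and 7.33, 7.22 and 6.63 in the *Ezh2* cko, gave a like log2 difference of 0.41 (adjusted p = 0.671) with overlapping groups. There, *Ezh2* cko replicate 3 lay below control replicates 1 and 3, while replicates 1 and 2 lay above all controls.

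The other *Sfrp* genes showed no separation of the groups. *Sfrp2*, which encodes a frizzled-related protein of neural progenitors, was at 11.34, 11.06 and 11.11 in controls and 11.39, 11.26 and 11.10 in the *Ezh2* cko (log2 difference 0.08, 95% interval -0.17 to 0.32, adjusted p = 0.917). *Sfrp4*, known for roles in bone and phosphate metabolism, was at 6.28, 6.15 and 6.19 against 6.08, 6.13 and 6.28 (log2 difference -0.04, adjusted p = 0.944). In both, the arrays of the groups were interleaved. The 2 probe sets of *Sfrp5*, a gene of anterior endoderm in the early embryo, gave log2 differences of -0.18 and -0.18 (adjusted p = 0.712 and 0.792), with *Ezh2* cko replicate 3 lowest in both.

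*Sfrp1* is known as a regulator of Wnt signaling in the developing brain and eye. Of its 5 probe sets, 4 had negative and 1 a positive log2 difference, from -0.29 to 0.12, and all had overlapping groups. The lowest was that of 1416594_at, at 7.52, 7.78 and 7.50 in controls and 7.20, 7.51 and 7.23 in the *Ezh2* cko (95% interval -0.55 to -0.02, adjusted p = 0.621). The probe set with the highest signal (1428136_at), at 9.95, 10.40 and 9.89 against 10.01, 10.01 and 10.19, gave -0.01 (adjusted p = 0.995). Over the 9 probe sets of *Sfrp1*, *Sfrp2*, *Sfrp4* and *Sfrp5*, the 95% intervals reached from -0.55 to 0.45 on the log2 scale, or 0.684-fold to 1.37-fold. A change of the size that the methods set as a minimum lay outside each of these intervals, in either direction. No test compared the *Sfrp* genes with *Wif1* or the *Dkk* genes.

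**Figure D2:**
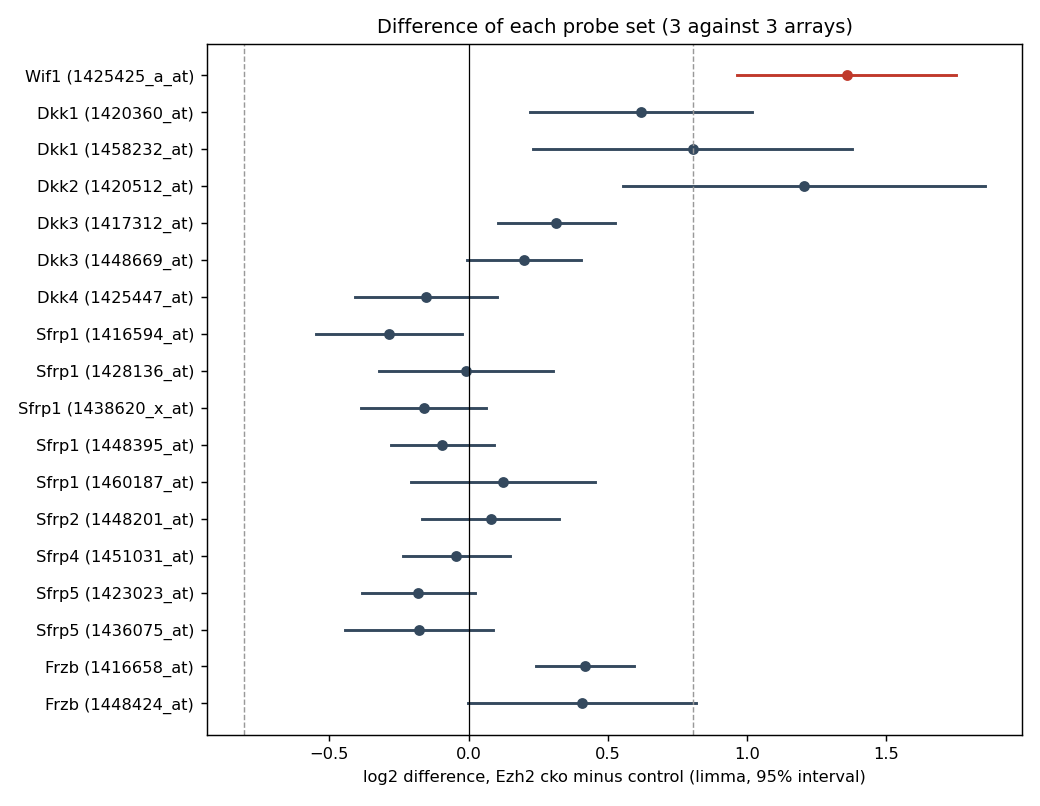
Log2 difference, *Ezh2* cko minus control, with its 95% interval from limma (x axis) for each member probe set (y axis), from 3 arrays against 3. Red marks *Wif1*, which passed the adjusted p, and dashed lines mark the minimum fold change of the methods in either direction. The intervals of *Wif1*, *Dkk1*, *Dkk2*, 1 probe set of *Dkk3* and 1 of *Frzb* lie to the right of 0, and that of 1 *Sfrp1* probe set lies to the left.

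The members with the larger differences did not share an order of the *Ezh2* cko arrays. As deviations from the mean of the 6 arrays, *Ezh2* cko replicates 1, 2 and 3 were at 0.48, 0.49 and 1.06 for *Wif1* and at -0.03, 0.58 and 1.25 for *Dkk2*. The means over the probe sets of *Dkk1* were 0.77, 0.49 and -0.18, and those of *Frzb* were 0.37, 0.29 and -0.04. Replicate 3 was thus highest for *Wif1* and *Dkk2* and lowest for *Dkk1* and *Frzb*.

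Markers of other cells moved with these arrays. The mean of 15 neuron markers, as a log2 deviation, was -0.45, -0.07 and -0.02 in control replicates 1 to 3 and -0.06, 0.19 and 0.42 in *Ezh2* cko replicates 1 to 3, and that of 14 mesenchyme markers was -0.32, -0.002 and -0.04 against 0.06, 0.09 and 0.22. Both were lowest in control replicate 1 and highest in *Ezh2* cko replicate 3, as *Wif1* was. The mean of 11 macrophage markers had the same extremes, at -0.42, -0.06 and 0.09 in control replicates 1 to 3 and 0.15, -0.0005 and 0.24 in *Ezh2* cko replicates 1 to 3. The mean of 8 neural crest markers was -0.17, -0.12 and -0.08 against 0.01, 0.08 and 0.28. That of 7 roof plate markers was highest in *Ezh2* cko replicate 1 (0.31, against 0.03 and 0.14 in replicates 2 and 3, and -0.19 to -0.12 in controls), as *Dkk1* was. Of these 7 markers, 6 had positive differences, against 43% of all genes. The other, *Lmx1a*, had a log2 difference of -0.16 (adjusted p = 0.739 from limma), with every *Ezh2* cko array below every control array. Of the 14 mesenchyme markers, 12 had positive differences. *Foxc2* was at -0.39 (adjusted p = 0.248 from limma), with every *Ezh2* cko array below every control array, and *Postn* at -0.16 (adjusted p = 0.86). In mean log2 signal, the neuron list ranged from 9.74 to 10.17 in controls and from 10.13 to 10.61 in the *Ezh2* cko, the mesenchyme list from 8.13 to 8.45 and from 8.51 to 8.67, the macrophage list from 6.25 to 6.76 and from 6.67 to 6.91, the neural crest list from 7.86 to 7.95 and from 8.04 to 8.31, and the roof plate list from 8.03 to 8.10 and from 8.25 to 8.54. None of the markers in these 5 lists passed the adjusted p. With the neuron mean as a term of the model, the log2 difference of *Wif1* was 0.97 (adjusted p = 0.127) and that of *Dkk2* 0.60 (adjusted p = 0.859). With the mesenchyme mean they were 0.94 (adjusted p = 0.295) and 0.78 (adjusted p = 0.827). Both were smaller than without a term, whereas several other members were larger. The first *Dkk1* probe set went from 0.62 to 0.95 with the neuron and 0.85 with the mesenchyme mean, and the second from 0.80 to 1.29 and 1.24. *Frzb* (1448424_at) went from 0.41 to 0.69 and 0.67, and *Sfrp2* from 0.08 to 0.30 and 0.32, with none of these past the adjusted p. The median over the 18 probe sets went from 0.10 to 0.30 and 0.32, beside -0.005 and -0.004 over all probe sets. Each of these means was itself higher on average in the mutant arrays, and what part the marker content plays in the differences beyond this was not tested.

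**Figure D3:**
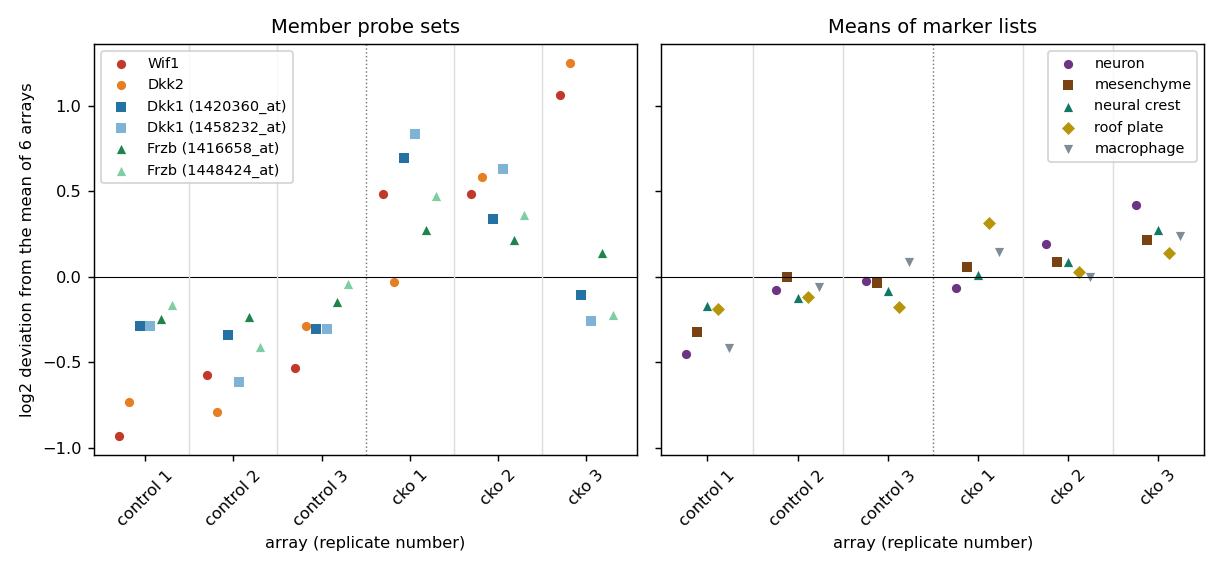
Log2 deviation from the mean of the 6 arrays (y axis) on each array (x axis) for the probe sets of *Wif1*, *Dkk2*, *Dkk1* and *Frzb* (left) and for the means of 5 marker lists (right). *Ezh2* cko replicate 3 holds the highest points of *Wif1*, *Dkk2* and the neuron list, and *Ezh2* cko replicate 1 those of *Dkk1* and the roof plate list.

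Over the 6 arrays, the genes nearest to *Wif1* in pattern were *Cdkn2c*, *Nexmif* and *Dmrta2*. Their root mean square differences from *Wif1*, in log2 units after each gene's mean was removed, were 0.07, 0.10 and 0.11. The nearest to *Dkk2* were *Moxd1*, *Hoxc4* and *Cyp26b1*, at 0.20, 0.21 and 0.22. *Wif1* and *Dkk2* themselves were 0.28 apart. These genes were picked from all 18193 by this distance, which follows the difference between the groups, and no test was made of it.

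Other genes of the Wnt pathway mostly did not pass. Among 19 Wnt ligands, none passed the adjusted p, where 54 of all 18193 genes passed as higher and 1 as lower. At the threshold of the methods 1 ligand passed, *Wnt1*, as higher (1.87-fold), where 68 of all genes did. Positive differences were found for 12 ligands (median log2 difference 0.07), against 43% of all genes. The 3 ligands with the largest differences were *Wnt1* (log2 difference 0.90, adjusted p = 0.0712), *Wnt3* (0.70, adjusted p = 0.349, from a probe set that may also match other transcripts) and *Wnt4* (0.55, adjusted p = 0.214, and 0.51 for its other probe set), each with no overlap between the groups. Every *Ezh2* cko embryo carried *Wnt1-Cre*, whereas controls could lack it. For *Wnt1*, an effect of this transgene and one of *Ezh2* loss therefore cannot be told apart. Of 16 receptor genes measured, *Fzd6*, which encodes a Frizzled receptor, rose by 0.64 on the log2 scale (adjusted p = 0.0273), although its other 2 probe sets did not pass, at 0.29 and -0.09. The remaining 15 did not pass (median of the list 0.09). The proteins that Dickkopf factors bind were added after their values were seen. *Lrp6* had a log2 difference of -0.18 (adjusted p = 0.718), *Lrp5* of -0.12 (adjusted p = 0.821) and *Kremen1*, which encodes a Dickkopf receptor, of 0.19 (adjusted p = 0.686). *Kremen2* was not analysed here. Of 14 Wnt feedback and target genes, 13 had positive differences, again against 43% of all genes, and none passed (median 0.13). Among these differences, those of *Ccnd1* (0.002) and *Sp5* (0.02) were very small. The largest were those of *Nkd1* (0.34, adjusted p = 0.677), *Notum* (0.29, adjusted p = 0.802) and *Lef1* (0.26, adjusted p = 0.54), an order that rests on 1 probe set for each gene. The other probe sets of *Nkd1* were at 0.20, 0.02 and 0.19, and the other of *Lef1* was at 0.37 (adjusted p = 0.437). By quantitative RT-PCR, the study reports *Lef1* and *Ccnd1* as lower in the mutant midbrain. It also reports fewer cells with an active Wnt reporter there at a later stage. *Nkd1* and *Notum*, which encode feedback inhibitors of the pathway, were highest in *Ezh2* cko replicate 1, at 9.91 and 6.98, as *Dkk1* was.

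Promoters were compared because Polycomb repressive complex 2 is known to act at CpG-rich promoters. RefSeq sequences on GRCm38.p6, from 250 bases before to 50 after the start site, were found for 6 of the 10 genes. *Wif1* had 25 CpG dinucleotides in these 300 bases, more than 81.6% of 32851 promoters, which have a median of 7. *Sfrp2* had 22, *Frzb* 20, *Sfrp5* 15, *Dkk2* 11 and *Dkk1* 9. The letters CTTTGA, part of the site that TCF and LEF factors recognize, occurred on either strand in the windows of *Dkk1* and *Frzb* and in 16.0% of all promoters. The 250 bases before the start site of the 3 *Wif1* and *Dkk* genes with a sequence are shown 5′ to 3′, with CpG in capitals, to set the CpG-dense promoter of *Wif1* beside those of *Dkk2* and *Dkk1*. They lie at chr10:121033754-121034003 (plus strand), chr3:132085042-132085291 (plus strand) and chr19:30549497-30549746 (minus strand).
Wif1: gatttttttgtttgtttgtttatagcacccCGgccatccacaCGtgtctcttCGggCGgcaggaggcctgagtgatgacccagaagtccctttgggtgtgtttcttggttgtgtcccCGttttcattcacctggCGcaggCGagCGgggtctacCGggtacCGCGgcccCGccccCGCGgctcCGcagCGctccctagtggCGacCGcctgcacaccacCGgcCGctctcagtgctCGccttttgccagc
Dkk2: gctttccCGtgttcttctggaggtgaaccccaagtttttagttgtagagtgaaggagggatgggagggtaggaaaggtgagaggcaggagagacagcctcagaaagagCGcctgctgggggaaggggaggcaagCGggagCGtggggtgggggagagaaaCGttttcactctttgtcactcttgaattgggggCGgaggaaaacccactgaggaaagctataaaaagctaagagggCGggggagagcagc
Dkk1: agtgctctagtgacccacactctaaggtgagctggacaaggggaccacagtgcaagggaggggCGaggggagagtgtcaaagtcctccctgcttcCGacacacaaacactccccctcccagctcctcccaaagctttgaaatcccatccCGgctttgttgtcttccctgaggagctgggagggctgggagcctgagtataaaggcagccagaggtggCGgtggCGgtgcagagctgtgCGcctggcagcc
These stretches hold 21, 7 and 6 CpG. No chromatin was measured in these samples. In dorsal midbrains of other embryos, of the NMRI strain and at a later stage, the study reports H3K27me3 at the start sites of both *Wif1* and *Dkk2*.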

How the data were processed

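Total RNA of 3 control and 3 *Ezh2* cko dorsal midbrains was hybridized to 1 array each. The deposited values are log2 signals that the authors made with RMA (named in the submitters' processing notes, version not given), which corrects background, quantile-normalizes the arrays and summarises each probe set. Aligners and builds do not apply. The number of arrays limits the precision. After removal of 64 control probe sets, limma 3.58.1 (R 4.3.3; lmFit, eBayes, default prior) was run on the other 45037, *Ezh2* cko minus control. The threshold of the methods is a change of at least 1.75-fold and an unadjusted p up to 0.01. The methods name no array test, and their general unpaired test was an alternative. Standard errors and intervals are limma's moderated ones.

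Symbols came from the platform's annotation (34945 probe sets with 1 symbol, 932 with several, 9160 with none), and 34741 were matched by Entrez identifier to a RefSeq table. In lists, the probe set with the highest mean represents a gene. The members, lists and tests were chosen with earlier results of these data known. The rule for names took all members, list genes past the adjusted p or otherwise the 3 largest differences, and the 3 genes nearest to *Wif1* and *Dkk2*. The lists were Wnt ligands, receptors and target genes, and markers of dorsal midbrain, neurons, mesenchyme, neural crest, epithelium, endothelium, erythroid cells, macrophages, roof plate, floor plate and forebrain. Alternatives were other priors, weights, filters, normalizations, gene means, a replicate block, marker terms, and arrays left out, of which leaving out 2 arrays together was chosen after seeing the data. The procedure was tested on simulated data.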

Additional observations from a re-analysis of the deposited data

How the results depend on the processing

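*Wif1* kept its positive difference in the 18 alternatives that gave a value (0.94 to 1.45), and *Dkk2* in 19 (0.60 to 1.52) without passing the adjusted p in any. The *Wif1* call was lost with the unpaired test of the methods (log2 difference 1.36, adjusted p = 0.534), with the neuron (0.97) and mesenchyme (0.94) marker means as terms, and without both control replicate 1 and *Ezh2* cko replicate 3 (1.04). Leaving out single arrays gave 1.17 to 1.45. Member probe sets past the adjusted p were then 0 with each of these 4 settings, where 4, 7, 8 and 10 had an unadjusted p under 0.05 (7 with all arrays and no term), against 6.72%, 5.86%, 6.15% and 6.37% of all probe sets (7.55%), and 0 to 2 without single arrays, against 1. They were also 0 without probe sets ending in _x_at, _s_at or _a_at, a filter that removes that of *Wif1* (7 of 16 at an unadjusted p under 0.05 in limma, against 7.44%). At the threshold of the methods, the count of 2 became 1 with the unpaired test and with that filter, 3 at a minimum of 1.5-fold, with array weights, with either marker term and without both of those arrays, and 1 to 4 without single arrays. *Dkk1* (1458232_at) passed only without *Ezh2* cko replicate 3. Of 332 alternative values of single probe sets, 6 changed sign, none to more than 0.15. The *Sfrp1* probe set 1428136_at gave 0.0039 with cyclic loess and -0.10 to 0.15 without single arrays. The *Sfrp5* probe set 1436075_at gave 0.045 with the neuron and 0.041 with the mesenchyme term. The cause was not tested. Same-numbered arrays did not deviate together (correlations 0.06, -0.20 and 0.06), and with a replicate block 1 member passed, *Wif1* (1.36, adjusted p = 0.0278), with *Dkk2* at adjusted p = 0.0805.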

Other observations

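Of the other marker lists, the 11 epithelium markers held 2 that rose, *Epcam* and *Cdh1*. The 7 floor plate and ventral midbrain genes held 1, *Foxa1*. Over all 18193 genes, 54 rose and 1 fell. Every *Ezh2* cko array lay below every control array for *Esrp1* (log2 difference -0.63, adjusted p = 0.276 from limma), *Krt5* (-0.11, 0.793) and *Ntn1* (-0.84, 0.355). *Ntn1* was also lower by the fold change and unadjusted p of the methods, where 6 of all genes were. Positive differences were found for 7 epithelium markers and, in the other list, for *Foxa1* only. No gene of the 10 endothelium, 8 erythroid, 11 macrophage, 10 forebrain or 10 dorsal midbrain markers passed the adjusted p. The median log2 differences were 0.09 for epithelium, -0.14 for floor plate and ventral midbrain, 0.08 for endothelium, -0.10 for erythroid, 0.23 for macrophage, 0.02 for forebrain and 0.13 for dorsal midbrain markers, beside 0.36 for neuron, 0.27 for mesenchyme, 0.27 for neural crest and 0.34 for roof plate markers.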
